A study of Mus musculus with 19 samples.

Results

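The genes described are 9 transcripts that the lining of the urinary tract, the urothelium, places at or near its surface. They are the 5 uroplakin genes Upk1a, Upk1b, Upk2, Upk3a and Upk3b, the surface genes Psca and Ly6d, and the small proline-rich genes Sprr1a and Sprr2a2. They were chosen by name among the 54146 gene identifiers measured in each library, and all 9 were found and tested. RNA sequencing was done on whole kidneys of B6C3F1/J mice at post natal day 21. The control group held 3 libraries of genotype Dnmt3ab f/f, that is, with floxed Dnmt3a and Dnmt3b and no Cre. The KspCre DKO group held 2 libraries of genotype KspCre Dnmt3ab f/f, with the same floxed alleles and a Cre under the Ksp-cadherin promoter. That promoter is known to be active in kidney tubule epithelium, while the libraries hold RNA of the whole organ. The study addressed what the loss of these DNA methyltransferases does to the kidney. Whether libraries of a group stem from different animals is not stated, and the p-values rest on the spread among these libraries, which may be technical.

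Uroplakins are the membrane proteins of the rigid plaques that cover the umbrella cells of the bladder, ureter and renal pelvis and keep urine from leaking through them. Upk1a and Upk1b encode tetraspanins, which cross the membrane several times. Each pairs with a protein that crosses it once: uroplakin 1a with uroplakin 2, and uroplakin 1b with uroplakin 3a or its relative 3b. Psca (prostate stem cell antigen) and Ly6d belong to the Ly6 family of small proteins held on the cell surface by a lipid anchor. The proline-rich proteins are cross-linked into the tough inner coat of stratified epithelia, and their genes are known to respond to epithelial stress. A whole kidney holds a thin sheet of urothelium along the renal pelvis beside a far larger mass of tubules.

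Start regions of 5 members were at hand, from RefSeq for build GRCm38.p6, each with 250 bases before and 50 bases after the gene's start. Those of 3 uroplakins are shown because the study concerns DNA methylation, which in mammals falls mostly on cytosines followed by guanine. Capitals mark these CG pairs. Each is written 5′ to 3′ along the gene.
Upk1a, chr7:30612685-30612984, minus strand: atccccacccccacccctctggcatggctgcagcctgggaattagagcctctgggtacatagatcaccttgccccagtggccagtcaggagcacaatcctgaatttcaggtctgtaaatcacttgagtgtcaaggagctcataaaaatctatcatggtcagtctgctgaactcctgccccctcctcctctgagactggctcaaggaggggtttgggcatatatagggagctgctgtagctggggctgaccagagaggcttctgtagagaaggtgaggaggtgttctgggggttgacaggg
Upk3a, chr15:85016891-85017190, plus strand: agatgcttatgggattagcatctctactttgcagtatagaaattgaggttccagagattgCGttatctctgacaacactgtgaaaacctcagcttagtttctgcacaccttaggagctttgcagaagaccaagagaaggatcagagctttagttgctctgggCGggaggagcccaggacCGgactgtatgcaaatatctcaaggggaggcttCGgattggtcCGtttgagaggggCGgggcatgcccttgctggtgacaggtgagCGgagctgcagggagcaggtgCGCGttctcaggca
Upk3b, chr5:136038246-136038545, plus strand: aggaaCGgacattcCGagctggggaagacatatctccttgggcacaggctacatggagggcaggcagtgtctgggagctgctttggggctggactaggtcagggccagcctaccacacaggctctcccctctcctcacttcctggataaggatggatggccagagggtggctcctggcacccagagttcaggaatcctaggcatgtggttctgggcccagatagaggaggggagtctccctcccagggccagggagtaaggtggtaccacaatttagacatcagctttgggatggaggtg

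The Upk1a window held 0 CG pairs, the Upk3b window 2 and the Upk3a window 9. Over 32851 RefSeq windows of the same length the median was 7, with 0 pairs in 5.43% of them, at most 2 in 23.3% and at most 9 in 56.5%. The uroplakin windows thus ran from none to slightly above the median. The longest run of letters shared by Upk3a and Upk3b was 8 bases. Methylation itself was not analysed here.

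The starts of the proline-rich genes are shown for other reasons: that of Sprr1a for its motifs, and that of Sprr2a2 because copies of the gene with like start regions exist. In Sprr1a capitals mark the pattern TGANTCA, which AP-1 factors are known to bind and which reads the same on both strands. In Sprr2a2 capitals again mark CG.
Sprr1a, chr3:92485832-92486131, minus strand: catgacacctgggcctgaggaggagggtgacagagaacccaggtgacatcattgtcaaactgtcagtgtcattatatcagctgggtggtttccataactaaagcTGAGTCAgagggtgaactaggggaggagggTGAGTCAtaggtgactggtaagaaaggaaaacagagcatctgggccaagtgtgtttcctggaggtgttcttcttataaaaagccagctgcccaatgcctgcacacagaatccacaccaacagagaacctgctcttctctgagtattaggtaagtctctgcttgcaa
Sprr2a2, chr3:92250397-92250696, plus strand: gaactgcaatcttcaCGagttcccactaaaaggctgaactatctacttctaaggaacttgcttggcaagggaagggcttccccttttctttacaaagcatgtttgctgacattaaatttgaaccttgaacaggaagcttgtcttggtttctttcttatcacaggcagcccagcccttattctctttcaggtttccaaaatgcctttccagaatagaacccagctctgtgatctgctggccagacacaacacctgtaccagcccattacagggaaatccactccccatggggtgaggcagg

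The Sprr1a window held 2 TGANTCA matches, a pattern present in 7.81% of all windows, and a TATAAA box (searched on both strands) beginning 43 bases before the start. TATAAA was present in 13.6% of windows. It does not overlap the TGANTCA matches. The Sprr2a2 window was identical over all 300 positions to that of its copy Sprr2a1. It also shared an unbroken run of 272 bases with the copy Sprr2a3, from its first base on, the windows being offset by the choice of start. The copies thus share most or all of the letters around their starts.

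Among 13963 genes tested (limma on log2(TPM + 1), Benjamini-Hochberg adjusted p below 0.05), 23 or 0.165% were called, 14 higher (0.1%) and 9 lower (0.0645%) in KspCre DKO. The calls split into 24 higher and 7 lower under median-of-ratios scaling, and into 35 and 7 under quantile normalization. That count was 59, 10 and 8 without control replicates 1, 2 and 3, and 560 and 6 without KspCre DKO replicates 1 and 2. Without KspCre DKO replicate 1 most calls were lower, 470 against 90 higher. Values are TPM, a transcript abundance corrected for length that sums to the same total in each library. They keep no depth, so depth is unknown and counting error cannot be given. KspCre DKO replicate 2 stood apart, with 14710 genes above 0 TPM and 31.0% of TPM from mitochondrial genes, against 18488 to 20510 genes and 18.2% to 23.2% in the other libraries. Dnmt3a, a targeted gene, was at 13.2, 18.97 and 15.5 TPM in control versus 9.98 and 14.2 TPM in KspCre DKO kidneys, and Dnmt3b at 1.82, 2.86 and 1.98 versus 2.29 and 3.25 TPM. The groups overlapped for both, so these whole-gene values do not check the genotype labels. The tissue label was checked against Slc34a1 of the proximal tubule and Aqp2 of the collecting duct, which were present in each library at no less than 1104 and 240.1 TPM.

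None of the 9 urothelial genes passed the test over all genes (limma), while 4 had an unadjusted p below 0.05, against 10.3% of all tested genes. Their log2 fold changes ran from −3.48 for Sprr2a2 to 2.48 for Psca. The fold change was above 0 for 5 of 9, against 38.3% of all tested genes, and the median was 0.33 against −0.14. In 4 genes, Psca, Upk3b, Upk3a and Sprr1a, both KspCre DKO values lay above all 3 controls, a pattern seen in 10.5% of tested genes. In 1, Sprr2a2, both lay below, as in 15.6%, so that 5 of 9 did not overlap in either direction against 26.1%. The other 4 genes overlapped. The members were picked with results of these libraries known, so these counts describe them and do not test them as a group. In whole organs, fewer cells of a type and less RNA per cell cannot be told apart.

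**Figure D1:**
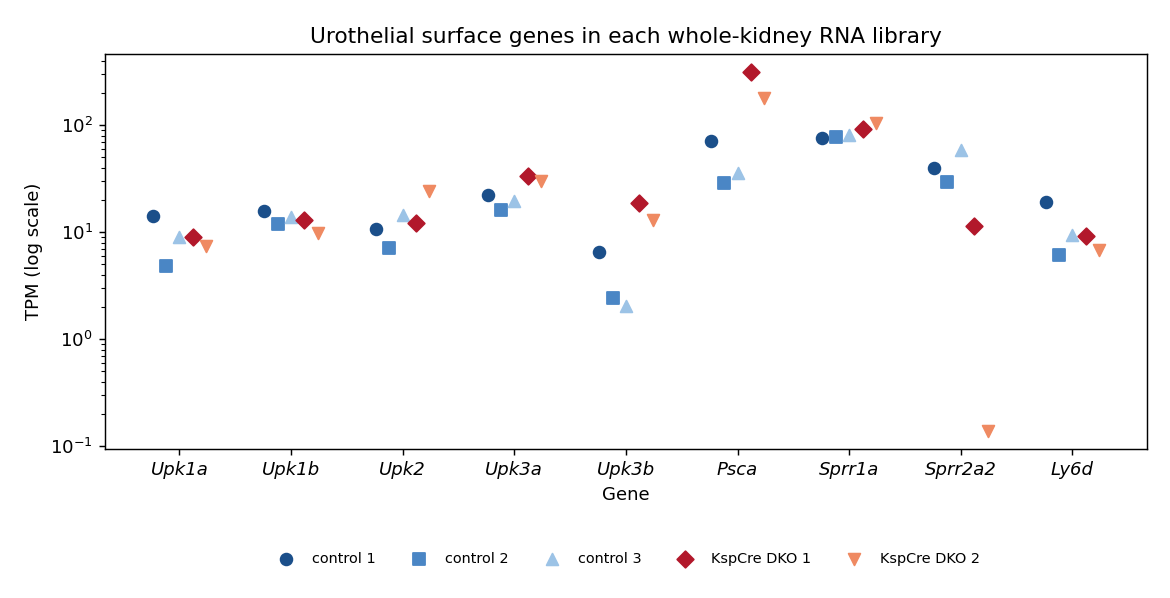
TPM of the 9 urothelial surface genes (log axis) in each of the 3 control (blue) and 2 KspCre DKO (red) libraries, one point per library. Psca and Upk3b lie higher in both KspCre DKO libraries, Sprr2a2 lies lower, at 11.4 and 0.14 TPM, and Upk1a, Upk1b and Ly6d overlap.

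Levels in the controls spanned more than an order of magnitude. Sprr1a was the most abundant at 78.9 ± 2.30 TPM (SD, n = 3), and it was above the other 8 genes in each control. Psca (45.2 ± 22.7) and Sprr2a2 (42.8 ± 15.1) followed, and did not differ beyond their spread. Upk3a, at 19.4 ± 3.12, was the leading uroplakin in each control. Upk1b (13.8 ± 1.97), Ly6d (11.6 ± 6.86), Upk2 (10.7 ± 3.64) and Upk1a (9.33 ± 4.64) had overlapping control ranges, although Upk1b was above Upk1a in each control. Upk3b was lowest at 3.68 ± 2.50. In KspCre DKO Psca was first at 248 ± 96.9 TPM (SD, n = 2), ahead of Sprr1a at 99.2 ± 9.10, and Sprr2a2 was last at 5.77 ± 7.96. Upk3b, at 15.8 ± 4.10 TPM, stood there beside Upk2 at 18.3 ± 8.61 and Upk1b at 11.5 ± 2.29.

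Among the tetraspanins, Upk1a (ENSMUSG00000006313.5, chromosome 7, 30603092 to 30612734) stood at 14.1, 4.88 and 8.97 TPM across control kidneys versus 9.03 and 7.42 in KspCre DKO. The KspCre DKO values fell inside the control range. Its fitted log2 fold change was −0.06 ± 0.42 (SE), with a 95% interval from −1.03 to 0.90. That interval allows a change of up to about 1 log2 unit either way. Upk1b (ENSMUSG00000049436.5, chromosome 16, 38773182 to 38800203) stood at 15.8, 11.9 and 13.8 in control versus 13.1 and 9.89 TPM in KspCre DKO. Here 1 of the 2 KspCre DKO values lay inside the control range and the other below it. On the log2 scale the fold change was −0.25 ± 0.30 (SE), with a 95% interval from −0.94 to 0.44. Without control replicate 1 the Upk1a fold change was 0.26, and it also turned above 0, to 0.06, without KspCre DKO replicate 2. Scaling moved it across 0 as well, to 0.04 with median-of-ratios scaling, 0.0031 with quantile normalization and 0.04 without mitochondrial genes.

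Of their partners, Upk2 (ENSMUSG00000041523.3, chromosome 9, 44452715 to 44454767) encodes the uroplakin that pairs with 1a. It stood at 10.7, 7.08 and 14.4 TPM across control kidneys versus 12.2 and 24.4 in KspCre DKO. Only KspCre DKO replicate 2 exceeded the controls. Its log2 fold change, 0.69 with an SE of 0.40 (limma adjusted p = 0.595), became 0.22 without that library and 1.16 without KspCre DKO replicate 1.

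Upk3a (ENSMUSG00000022435.6, chromosome 15, 85017141 to 85022560), whose loss in mice is known to disrupt the plaques, measured 22.4, 16.1 and 19.5 TPM in control kidneys. It stood at 33.4 and 30.1 TPM in KspCre DKO. The groups did not overlap, and the log2 fold change was 0.70 ± 0.28 (SE; limma adjusted p = 0.444). Its locus overlaps the predicted locus Gm52194 in RefSeq. The strand setting of the counting is not given in the sources used here, so reads of the pair cannot be told apart. Within 150000 bases of Upk3a, 5031439G07Rik, 29170 bases away, also lay higher without overlap. It stood at 7.21, 4.74 and 5.80 in control versus 9.68 and 16.8 TPM in KspCre DKO (limma log2 fold change 1.01 with SE 0.35, adjusted p = 0.373). The other tested neighbours there, Nup50 and Fam118a, overlapped.

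Upk3b (ENSMUSG00000042985.7, chromosome 5, 136038496 to 136044993) had the largest fold change among the uroplakins. Control values were 6.56, 2.42 and 2.06 TPM, and KspCre DKO values 18.7 and 12.9 TPM. Both KspCre DKO libraries exceeded the highest control, replicate 1, and the ratio of group means was 4.29. The log2 fold change was 1.94 ± 0.45 (SE; limma adjusted p = 0.18), with a 95% interval from 0.92 to 2.97. It ranged from 1.69 to 2.35 when any 1 library was left out, and was not called in those refits. Upk3b lies 12266 bases from its relative Upk3bl, which was at 0.34, 0.62 and 0 TPM across control kidneys versus 1.45 and 0 in KspCre DKO. Of the other neighbours within 150000 bases, Dtx2, the nearest, stood at 5.59, 5.94 and 7.67 in control versus 7.69 and 1.75 TPM in KspCre DKO. No tested neighbour other than Upk3b in that window was higher without overlap.

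**Figure D2:**
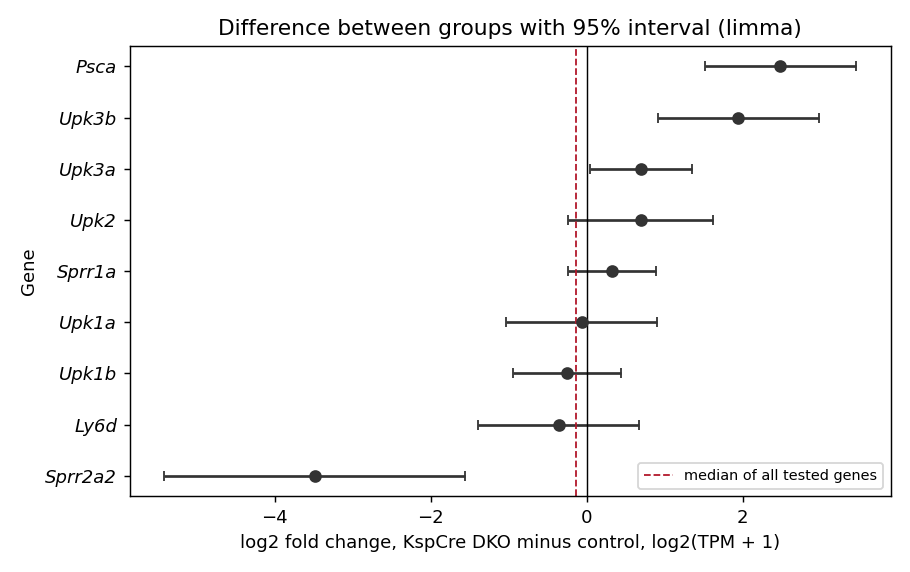
Log2 fold changes of the 9 genes on the log2(TPM + 1) scale (points) with 95% intervals from limma (bars), the 3 controls against the 2 KspCre DKO libraries. The dashed line is the median of all 13963 tested genes, −0.14, and the intervals of Psca, Upk3b and Upk3a lie above 0 while that of Sprr2a2 lies below it, before adjustment for the number of genes.

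Summed over the 5 uroplakins, the level was 69.6, 42.4 and 58.7 TPM across control kidneys versus 86.4 and 84.7 in KspCre DKO. The KspCre DKO sums lay above each control, and the ratio of means was 1.5. Upk3a and Upk3b held most of that difference, with 28.9, 18.6 and 21.6 TPM together in the controls and 52.1 and 43.0 TPM in KspCre DKO. The other 3 uroplakins summed to 40.7, 23.9 and 37.1 in control versus 34.3 and 41.7 TPM in KspCre DKO, values that overlap. As a share of all uroplakin TPM, Upk3b made up 9.42%, 5.70% and 3.51% in the controls and 21.6% and 15.2% in KspCre DKO. The share of Upk1b was 22.8%, 28.1% and 23.5% against 15.2% and 11.7%.

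Ratios between genes of 1 library do not change when all its values are multiplied by 1 factor, although quantile normalization can change them. These were chosen after the values had been seen and carry no test. Upk3a over Upk1b, which pair in the plaque, was 1.41, 1.36 and 1.42 in the controls, a spread of 0.034 (SD) around 1.39. It was 2.54 and 3.05 in KspCre DKO. Upk3b over Upk1b was 0.41, 0.20 and 0.15 against 1.42 and 1.3. In the controls the transcript level of Upk3b was thus below that of Upk1b, and in KspCre DKO it passed that of Upk1b in both libraries. These whole-kidney ratios do not measure pairing of the proteins, nor whether both transcripts come from the same cells. The other plaque pair, Upk2 over Upk1a, was 0.76, 1.45 and 1.60 against 1.35 and 3.28, and overlapped.

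**Figure D3:**
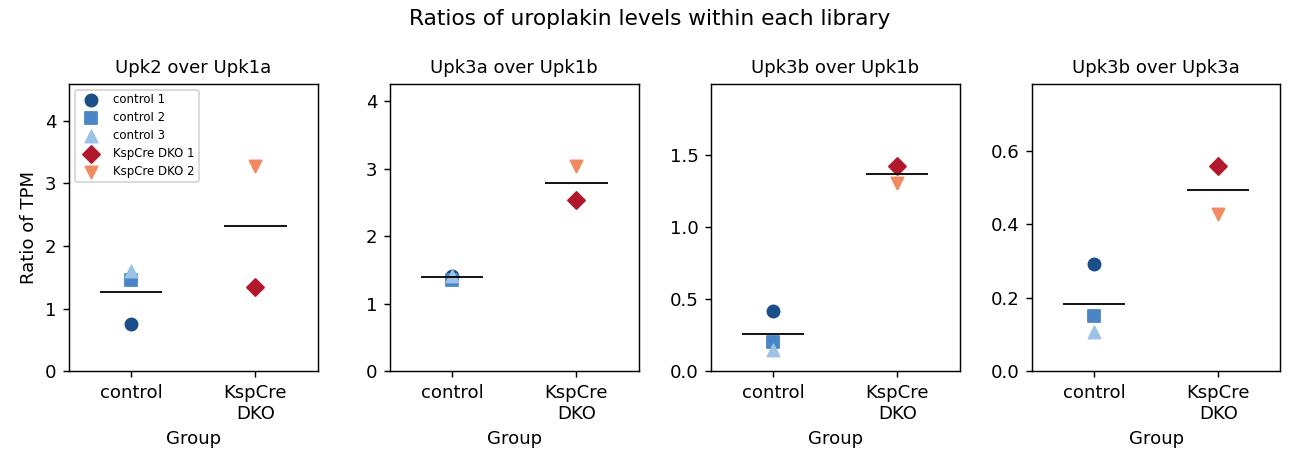
Ratios of TPM between uroplakin genes within each library, with group means as horizontal lines; points are the 3 control and 2 KspCre DKO libraries. Upk3a over Upk1b sits between 1.36 and 1.42 in the controls and at 2.54 and 3.05 in KspCre DKO, while Upk2 over Upk1a overlaps between the groups.

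Psca (ENSMUSG00000022598.6, chromosome 15, 74714839 to 74717065) measured 71.0, 28.6 and 35.97 TPM in control kidneys. In KspCre DKO it stood at 316 and 179 TPM, both above the highest control. The ratio of means was 5.49, and the log2 fold change was 2.48 ± 0.42 (SE; limma adjusted p = 0.081), with a 95% interval from 1.51 to 3.45. It passed the threshold without control replicate 1 (adjusted p = 0.0152) and not when any other single library was left out (adjusted p = 0.0755 to 0.243). The gene held the 76.2 to 89.3 percentile of tested genes by TPM in the controls and the 97.7 and 97.1 percentile in KspCre DKO.

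Ly6d (ENSMUSG00000034634.7, chromosome 15, 74762056 to 74763567), the other Ly6 family member, lies 44991 bases from Psca in the same gene cluster. It stood at 19.3, 6.15 and 9.37 TPM across control kidneys versus 9.26 and 6.79 in KspCre DKO, within the control range. Its fitted log2 fold change was −0.36 ± 0.45 (SE), with a 95% interval from −1.39 to 0.68, and it was 0.05 without control replicate 1. Psca over Ly6d was 3.68, 4.64 and 3.84 in the controls and 34.2 and 26.4 in KspCre DKO. The ratio of these cluster neighbours thus varied little among the controls, while both genes were highest in control replicate 1, and the groups did not overlap.

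Each tested gene within 150000 bases of Psca had a smaller fold change than Psca; the differences were not tested. Jrk, 5517 bases away, stood at 1.07, 0.94 and 1.54 in control versus 1.41 and 0.99 TPM in KspCre DKO. Them6, 4169 bases away, stood at 12.9, 8.86 and 9.22 in control versus 19.0 and 12.0 TPM in KspCre DKO (limma log2 fold change 0.52 with SE 0.33, adjusted p = 0.627). Lypd2, a Ly6 family gene 15181 bases away, stood at 34.2, 36.9 and 47.6 in control versus 62.3 and 47.8 TPM in KspCre DKO, above the controls by a narrow margin in KspCre DKO replicate 2 (limma log2 fold change 0.47 with SE 0.29, adjusted p = 0.613). Lynx1 stood at 8.28, 2.40 and 2.90 in control versus 8.13 and 4.49 TPM in KspCre DKO. Arc, an activity-regulated gene 42269 bases away on the other side, stood at 1.43, 1.45 and 2.26 in control versus 12.2 and 5.44 TPM in KspCre DKO (limma log2 fold change 1.78 with SE 0.42, adjusted p = 0.188). Slurp1, Slurp2, Ly6k and Gml in the same cluster had at most 1.73 TPM in any library.

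Over the wider Ly6 and uPAR family, 23 genes had values and 13 were tested. None of these passed over all genes (limma), and 5 had an unadjusted p below 0.05, against 10.3% of all tested genes. The median log2 fold change was 0.46 against −0.14 for all tested genes. Members lay in both directions. Ly6a, a stem cell and endothelial surface antigen, stood at 809, 764 and 919 in control versus 426 and 262 TPM in KspCre DKO (limma log2 fold change −1.31 with SE 0.27, adjusted p = 0.144). Plaur, the urokinase receptor, stood at 6.59, 4.26 and 8.46 in control versus 19.3 and 17.2 TPM in KspCre DKO (adjusted p = 0.2). Ly6e stood at 459, 191 and 298 in control versus 908 and 603 TPM in KspCre DKO (adjusted p = 0.278). In each of these the groups did not overlap.

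Sprr1a (ENSMUSG00000050359.7, chromosome 3, 92483954 to 92485881) was the steadiest of the 9 genes in the controls, at 76.8, 78.5 and 81.3 TPM. KspCre DKO libraries held 92.8 and 106 TPM, both above the controls. On the log2 scale the fold change was small at 0.33 ± 0.24 (SE; limma adjusted p = 0.681), with a 95% interval from −0.23 to 0.88.

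Sprr2a2 (ENSMUSG00000068893.5, chromosome 3, 92250647 to 92257304) had the lowest fold change of the 9 genes. It stood at 39.5, 29.6 and 59.3 TPM across control kidneys versus 11.4 and 0.14 in KspCre DKO. Both KspCre DKO values lay below the controls, and replicate 2 was close to 0. The log2 fold change was −3.48 ± 0.84 (SE; limma adjusted p = 0.198). It was −1.76 without KspCre DKO replicate 2 (adjusted p = 0.265) and −5.21 without KspCre DKO replicate 1 (adjusted p = 0.0221), where a single library of that group remains and is taken to vary like the controls.

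The copy Sprr2a3, which lies 28000 bases away, showed the opposite order, at 4.29, 0.46 and 3.61 TPM across control kidneys versus 13.5 and 18.7 in KspCre DKO (limma log2 fold change 2.36 with SE 0.56, adjusted p = 0.188). Sprr2a1 was at 0.77, 0.50 and 1.18 in control versus 0.03 and 0 TPM in KspCre DKO. The start regions of the copies are alike, as shown above; their transcripts were not compared, and how reads were divided among them was not tested. Their sum was 44.6, 30.5 and 64.0 TPM across control kidneys versus 24.9 and 18.9 in KspCre DKO. These sums still did not overlap, but tested as 1 gene, a choice made after seeing the data, the log2 fold change shrank to −0.999 ± 0.36 (SE; limma adjusted p = 0.386). The fold change of Sprr2a2 alone should be read beside that of the sum. Whether the division of reads among the copies has a part in it was not tested.

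**Figure D4:**
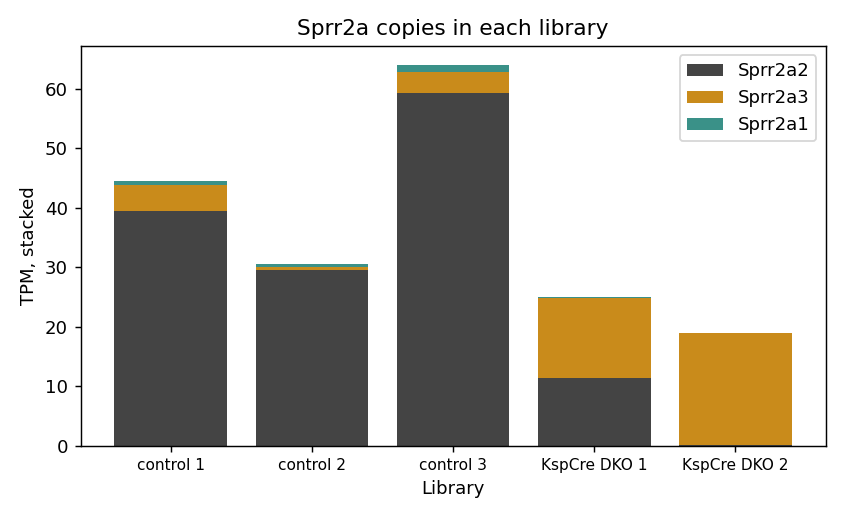
Stacked TPM of Sprr2a2, Sprr2a3 and Sprr2a1 in each of the 5 libraries. Sprr2a2 makes up most of the bar in the controls, Sprr2a3 makes up nearly all of it in KspCre DKO replicate 2, and the full bars are 30.5 to 64.0 TPM across control kidneys versus 18.9 and 24.9 in KspCre DKO.

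Of 23 other genes of the cornified envelope, 10 were listed at 0 in every library, among them Sprr1b and Sprr3, and 6 were tested. None passed over all genes (limma), and 2 had an unadjusted p below 0.05 (10.3% of all tested genes). Besides Sprr2a3 these were led by Ppl, periplakin, which links the envelope to keratin filaments, at 9.51, 5.83 and 4.62 in control versus 33.6 and 15.4 TPM in KspCre DKO (limma log2 fold change 1.69 with SE 0.42, adjusted p = 0.21). Its partner Evpl, envoplakin, stood at 7.47, 9.08 and 5.71 in control versus 12.8 and 11.9 TPM in KspCre DKO (adjusted p = 0.507).

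Further lists held keratins, transcription factors, uroplakin traffic genes and surface or junction genes, drawn up with the urothelium in mind. How much of their values comes from urothelium was not tested. The lists were chosen with earlier results of these data known, so counts describe them and do not test them. Of 59 tested genes of these and the preceding 2 lists 3 were called, all higher, against 0.165% called and 0.1% called higher among all tested genes. Those 3, Gsdmc2, Gsdmc3 and Muc20, belong to the surface and junction list, in which 10 of 11 tested genes had a fold change above 0 (median 0.90), against 38.3% and a median of −0.14 over all tested genes. Gsdmc2, a gasdermin gene, stood at 13.1, 12.0 and 14.5 in control versus 61.9 and 58.7 TPM in KspCre DKO (limma log2 fold change 2.12 with SE 0.27, adjusted p = 0.0425). Gsdmc3, of the same family, stood at 9.57, 8.23 and 7.96 in control versus 58.1 and 37.9 TPM in KspCre DKO (limma log2 fold change 2.33 with SE 0.31, adjusted p = 0.0461). Muc20, a membrane mucin, stood at 20.3, 8.29 and 6.81 in control versus 195 and 90.0 TPM in KspCre DKO (limma log2 fold change 3.53 with SE 0.50, adjusted p = 0.0485). In all 3 the groups did not overlap. With any 1 library left out the log2 fold change stayed at 2.05 to 2.18 for Gsdmc2, 2.02 to 2.63 for Gsdmc3 and 2.98 to 4.09 for Muc20, but calls were lost. Without control replicate 2, control replicate 3 or KspCre DKO replicate 2 the adjusted p was 0.163, 0.166 and 0.126 for Gsdmc2, 0.168, 0.181 and 0.106 for Gsdmc3, and 0.174, 0.162 and 0.168 for Muc20. Gsdmc2 was also lost without control replicate 1 (adjusted p = 0.0508) and Muc20 without KspCre DKO replicate 1 (adjusted p = 0.0545). How reads were divided between Gsdmc2 and Gsdmc3 was not tested.

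None of 12 tested transcription factors known from urothelium passed over all genes (limma), and 6 had an unadjusted p below 0.05 (10.3% of all tested genes). Without overlap, 6 lay higher (10.5% of all tested genes) and 1 lower (15.6%). Tbx3 stood at 6.02, 3.27 and 7.15 in control versus 26.3 and 30.6 TPM in KspCre DKO (limma log2 fold change 2.23 with SE 0.36, adjusted p = 0.0705). For Ehf the log2 fold change was 1.49 (adjusted p = 0.129), and for Gata3 1.14 (adjusted p = 0.188). Elf3, Klf5 and Foxq1 also lay higher without overlap, Elf3 by 1.15 on the log2 scale (adjusted p = 0.19); the adjusted p was 0.234 for Klf5 and 0.342 for Foxq1. Pparg, a nuclear receptor of urothelial differentiation, was the 1 factor lower without overlap, at 2.43, 3.6 and 3.52 in control versus 2.14 and 0.80 TPM in KspCre DKO (limma log2 fold change −0.80 with SE 0.41, adjusted p = 0.553). The other 2 listed factors were too low to be tested, and their groups overlapped. Grhl3, needed for umbrella cell differentiation, was at 1.01, 0.84 and 0.72 in control versus 1.0 and 0.77 TPM in KspCre DKO, and Trp63, the basal factor, was at 0.82, 0.54 and 0.12 in control versus 1.49 and 0.10 TPM in KspCre DKO.

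Of 10 urothelial keratins 7 were tested, and none passed over all genes (limma), with 2 at an unadjusted p below 0.05 (10.3% of all tested genes). Among the untested, Krt13 was listed at 0 in every library. Krt18, which is also found in tubules, stood at 86.3, 76.6 and 57.5 in control versus 206 and 123 TPM in KspCre DKO (limma log2 fold change 1.12 with SE 0.32, adjusted p = 0.269). Krt5, the basal keratin, overlapped at 6.03, 4.58 and 9.49 in control versus 3.19 and 5.17 TPM in KspCre DKO (limma adjusted p = 0.663). Krt14, also basal, stood at 2.52, 3.79 and 3.53 in control versus 0.71 and 0.49 TPM in KspCre DKO (limma adjusted p = 0.26). The keratins gave no common direction, 4 of the 7 tested above 0. Krt7 lay lower and Krt8 higher without overlap, with log2 fold changes of −0.26 and 0.36. Krt15 overlapped, with a log2 fold change of 0.36. Krt20, the umbrella cell keratin, was at 0.99, 0.40 and 0.40 in control versus 0.81 and 1.22 TPM in KspCre DKO. Genes of uroplakin assembly and vesicle traffic gave no common direction, 5 of 10 above 0, with a median of 0.01. None of them passed over all genes (limma), and 3 had an unadjusted p below 0.05 (10.3% of all tested genes). Mal, a raft protein that helps uroplakin vesicles fuse, stood at 176, 162 and 161 in control versus 305 and 245 TPM in KspCre DKO (adjusted p = 0.352). Rab11a, a recycling vesicle GTPase, stood at 228, 218 and 300 in control versus 174 and 101 TPM in KspCre DKO (adjusted p = 0.373). Sytl2 was also lower without overlap, at 14.0, 15.1 and 14.2 in control versus 10.9 and 4.97 TPM in KspCre DKO (limma adjusted p = 0.446). Snx31, a uroplakin-binding sorting nexin, overlapped at 5.73, 1.56 and 4.17 in control versus 4.95 and 3.94 TPM in KspCre DKO.

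Markers of other kidney cells were summed in each library. Summed over 7 principal cell markers of the collecting duct, the level was 945 to 1033 TPM across control kidneys versus 2349 and 2359 in KspCre DKO. None of the 7 passed over all genes (limma), and 3 had an unadjusted p below 0.05 (10.3% of all tested genes). Without overlap, 4 lay higher (10.5% of all tested genes) and 2 lower (15.6%). Aqp2 and Fxyd4 held most of the difference in the sum, with Fxyd4 at 277, 340 and 228 in control versus 541 and 755 TPM in KspCre DKO (adjusted p = 0.178). Aqp2 stood at 347, 240 and 426 in control versus 1414 and 1218 TPM in KspCre DKO (adjusted p = 0.0512), and Elf5 had a log2 fold change of 2.51 (adjusted p = 0.0705), while the log2 fold changes of Scnn1b, Scnn1g and Hsd11b2 were −0.24, −0.25 and −0.20. Scnn1g, a sodium channel subunit, stood at 28.9, 37.5 and 26.6 in control versus 25.9 and 25.3 TPM in KspCre DKO. The 4 inner medulla genes summed to 116 to 237 TPM against 1314 and 751 TPM, with most of the difference from Akr1b3, aldose reductase. Akr1b3 stood at 178.7, 55.0 and 107 in control versus 1221 and 711 TPM in KspCre DKO (limma adjusted p = 0.0541). Of the 4 genes, 2 had a fold change above 0 and 2 below, and 1 lay higher without overlap (10.5% of all tested genes). None passed over all genes (limma), and 2 had an unadjusted p below 0.05 (10.3% of all tested genes). Slc5a3 was lower with overlap, at 14.3, 17.6 and 27.6 in control versus 14.7 and 4.83 TPM in KspCre DKO. The 5 intercalated cell markers summed to 169 to 225 TPM against 149 and 116 TPM. All 5 had a fold change below 0, whereas 38.3% of all tested genes lay above 0. Of the 5, 3 lay lower without overlap (15.6% of all tested genes) and 2 had an unadjusted p below 0.05 (10.3%). None passed over all genes (limma), and Slc26a4 had a log2 fold change of −0.95 (adjusted p = 0.309). The part of these cell types in the values of Psca, Upk3a and Upk3b was not tested.

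Upk3b and Upk1b are also known from mesothelium, the covering of the organ surface. Of 9 mesothelial markers with values, Bnc1 was listed at 0 in each library, and Lrrn4 and Muc16 did not exceed 0.03 and 0.01 TPM. All 9 summed to 30.9 to 73.8 TPM across control kidneys versus 47.4 and 36.4 in KspCre DKO, with overlap; Wt1, which podocytes also express, Gpm6a and Cldn15 held most of it. Smooth muscle markers, which the pelvic wall also holds, summed to 174, 93.5 and 156 in control versus 94.9 and 97.9 TPM in KspCre DKO. Of 6 tested, 5 had a fold change below 0 and 1 an unadjusted p below 0.05 (10.3% of all tested genes). That was Tagln, which overlapped at 84.3, 24.6 and 70.5 in control versus 21.3 and 24.7 TPM in KspCre DKO (limma adjusted p = 0.468). The log2 fold change of Smtn was 0.02. Actg2, a low gene, was at 6.54, 0.44 and 0.80 in control versus 0.15 and 0 TPM in KspCre DKO, highest in control replicate 1. That library was also highest among the controls for 6 of the 9 urothelial genes, and control replicate 2 lowest for 7 of 9. The part of these differences between libraries in the results was not tested.

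**Figure D5:**
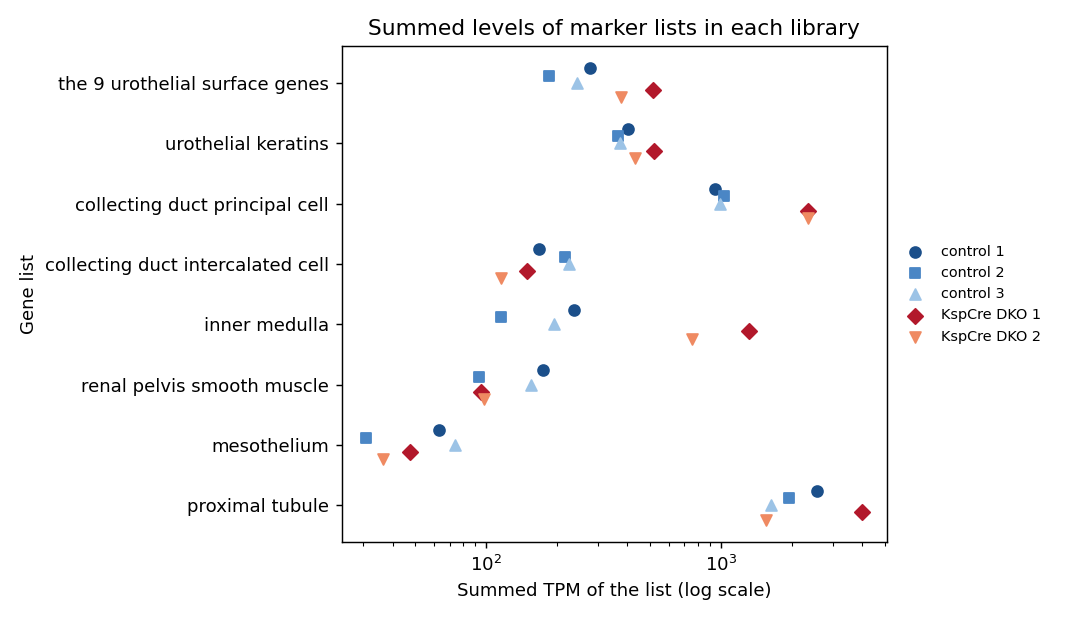
Summed TPM (log axis) of the 9 urothelial genes and of marker lists in each of the 3 control and 2 KspCre DKO libraries. The principal cell and inner medulla sums are higher in both KspCre DKO libraries, at 2349 and 2359 TPM and at 1314 and 751 TPM, while the mesothelium sums overlap. Most of the inner medulla difference comes from Akr1b3.

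The genes closest in pattern to the 3 members of smallest p were sought among 8674 genes averaging 5 TPM or more. Members, predicted gene models, pseudogenes, mitochondrially encoded genes and genes without a symbol had been left out. Likeness was the root mean square difference between log2(TPM + 1) profiles, each centred on its own mean over the 5 libraries. Tmem30b was nearest to Psca, at 0.12, with 19.2, 8.61 and 11.1 TPM across control kidneys versus 82.1 and 50.4 in KspCre DKO. It encodes a subunit of lipid flippases, the pumps that move phospholipids between membrane leaflets. Next to it came Atp10b, a flippase gene of the P4-ATPase family, at 0.14, with 3.42, 0.88 and 1.01 in control versus 14.5 and 8.55 TPM in KspCre DKO, and Hacd4, of fatty acid elongation, at 0.16. Atp10b (0.18) and Hacd4 (0.23) were also the nearest to Upk3b, followed by the mitochondrial carrier gene Slc25a48 (0.24). The match to Sprr2a2 was looser: Tfrc, the transferrin receptor, at 0.48, with 27.4, 24.7 and 27.0 in control versus 9.71 and 0.47 TPM in KspCre DKO, then Ankrd23 (0.50) and Chac2 (0.59), both listed at 0 in KspCre DKO replicate 2. None of these 7 genes passed the test over all genes (limma adjusted p from 0.081 to 0.386).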

How the data were processed

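Poly(A) RNA of whole kidney was made into TruSeq libraries, per the labels' protocols. Tools listed in the submitters' processing notes, with no role stated, include STAR 2.2.1 and RSEM 1.3.1 beside Trim Galore 0.5.0, and the build is mm10. For the annotation release and the strand of counting, the sources used here state nothing. The deposited values are TPM per gene made by the authors, 1 file per library. A table of gene names paired 52480 of 54146 identifiers (96.9%) with a symbol, and positions and start regions come from RefSeq for GRCm38.p6, the same build family. The other 14 of 19 samples are not analysed here.

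The test was limma 3.58.1 in R 4.3.3, two-sided, on log2(TPM + 1) with an intensity trend, for 13963 genes averaging 1 TPM or more, Benjamini-Hochberg adjusted over all of them. Fold changes are KspCre DKO minus control on that scale and understate changes of low genes. An exact 0 can be a failed estimate. For 1 gene, an exact permutation of 3 against 2 libraries cannot give a p below 0.1, so none is given. The members and lists were chosen with earlier results of these data known. Named genes are the members, called genes of each list, otherwise up to 3 tested genes of smallest p, the 3 genes nearest in pattern to each of 3 members, and the targeted genes; other list genes, cluster neighbours, copies, ratios and tissue markers were named after their values were seen. The fit was tested on simulated data. Alternatives were pseudocounts of 0.1 and 5, other filters and scalings, no trend, a replicate block, each library left out and the Sprr2a copies summed.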

Additional observations from a re-analysis of the deposited data

How the results depend on the processing

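The direction of a member's fold change and its side of the threshold held in 125 of 135 refits (9 genes, 15 settings). Part of that count was fixed in advance. Other filters and the fit without a trend leave the fold changes of members as they are, and summing the Sprr2a copies alters only that of Sprr2a2. The count of called genes, 23, became 37 without mitochondrial genes, 4 without a filter, 9 without the intensity trend, 14 and 39 with pseudocounts of 0.1 and 5, 42 with quantile normalization and 75 with the replicate block. It ranged from 6 to 560 with 1 library left out. Called members, 0 in the test as reported, were 2 with the replicate block (Psca, adjusted p = 0.012, and Sprr2a2, adjusted p = 0.0318), and 0 to 1 with 1 library left out. Called related genes, 3, became 0 without a filter or without the trend, 1 with a pseudocount of 0.1, and 0 to 8 with 1 library left out. The cause of these moves was not tested. The replicate numbers were not shown to pair libraries, since deviations of same-numbered libraries correlated at 0.0926 and 0.0281 over 2 pairs, and the block leaves control replicate 3 without weight in the fold changes. The Upk1a fold change of −0.06 turned to 0.039 with median-of-ratios scaling, to 0.0031 with quantile normalization and to 0.041 without mitochondrial genes. With 1 library left out it ranged from −0.42 to 0.26, above 0 without KspCre DKO replicate 2 (0.06) and control replicate 1 (0.26), and that of Ly6d ranged from −0.70 to 0.054, above 0 without control replicate 1. Quantile normalization moved the median of all genes from −0.14 to −0.02. The log2 ratio of summed uroplakins, 0.59, stayed between 0.41 and 0.76. TPM hold no depth, so the precision of low genes such as Krt20 or Trp63 is unknown.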

Other observations

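Values of some related genes not described above follow; Sprr2g was too low to be tested, and none of the others passed the test over all genes (limma). Sprr2g, a proline-rich gene of the Sprr2a2 cluster, was at 1.45, 0.49 and 2.68 TPM across control kidneys but was listed at 0 in KspCre DKO replicates 1 and 2. Ly6g6d, a Ly6 family gene outside the Psca cluster, was at 3.15, 3.21 and 4.84 TPM across control kidneys versus 1.96 and 0 in KspCre DKO (limma log2 fold change −1.44 with SE 0.52, adjusted p = 0.388). Klf5 and Foxq1, factor genes active in urothelium and in other epithelia, stood at 2.72, 2.53 and 2.92 in control versus 9.0 and 6.8 TPM in KspCre DKO and at 2.98, 2.95 and 4.27 in control versus 9.72 and 6.62 TPM in KspCre DKO. Muc1, a surface mucin, stood at 31.9, 34.3 and 34.5 in control versus 135 and 85.8 TPM in KspCre DKO (limma adjusted p = 0.0862), and Cldn4, a tight junction claudin, at 24.9, 21.6 and 20.3 in control versus 62.4 and 40.9 TPM in KspCre DKO. These genes were named after their values were seen.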
